A study of Pleurodeles waltl with 9 samples.

Results

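In the dorsal iris of the Iberian ribbed newt Pleurodeles waltl, 60 of the 295141 transcripts in the deposited table were abundant in the intact tissue and low at both times after removal of the lens. The members were chosen by their own values in 8 of the 9 RNA-seq libraries. A transcript was taken when its lower value in intact replicates 1 and 2 was at least 200 and at least 4 times the highest value plus 1 in the 6 libraries made after surgery. Its mean at 4 days post-lentectomy (dpl), plus 1, also had to lie between 0.5 and 2 times its mean at 1 dpl, plus 1. The difference between intact and operated tissue, and the likeness of 1 dpl and 4 dpl, were therefore set by the choice. They are described here, and nothing is read from the counts of calls given for them. Intact replicate 3 took no part in the choice and served as a separate reading of each transcript. Among the members, none was at 0 in any library, so they are called low and not absent after lentectomy.

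In newts, the lens is replaced after its removal by pigment epithelial cells of the dorsal iris, which lose pigment, divide and turn into lens cells. The first days after lentectomy come before a lens vesicle can be seen, while the tissue responds to the injury. The iris also holds stroma, muscle, vessels and resident immune cells, and all of them contribute RNA to a piece of dissected tissue.

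The study set dorsal iris from intact eyes against irises at 1 dpl and 4 dpl, with 3 libraries of polyA RNA per group and the tissue of 4 newts pooled in each. All animals were 13 months old, and lentectomy was done surgically under tricaine. The labels name no genotype, strain or further treatment, and a library of pooled tissue gives no value for a single animal. The study left intact replicate 3 out of its own analysis because of its alignment rate.

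The deposited values carry the name of average TPM, a level per transcript length. Their column totals lay between 17541400 and 22023400 instead of at 1000000, so they are given here as relative levels, and the number of reads behind each value is unknown. Intact replicate 3 had the lowest total, and its smallest value above 0 was 1.53, against 0.174 to 0.382 in the other 8 libraries. The table does not pair its IDs with gene names, and 0 of the IDs matched the 59059 genes of the RefSeq table for assembly aPleWal1.hap1.20221129. The functions of the members are therefore not given, no sequence is shown, and the iris could not be checked against its marker genes. Members are called by their rank in the lower of the values in intact 1 and 2, and IDs are printed for 2 of them.

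An ID of the form mRNA and a number was carried by 20 members, and 40 members (66.7%) had an ID that StringTie, the assembler of transcripts from aligned reads, writes as a gene number and a transcript number. StringTie IDs made up 39.4% of the other 10811 transcripts of at least 200 in both intact replicates and 71.1% of the 154825 transcripts tested. The 40 StringTie members came from 36 StringTie genes, 4 of which held 2 members each. Transcripts of 1 gene share reads, and Salmon divides those reads among them by estimate, so members of 1 gene are not independent of each other.

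Of the 10871 transcripts of at least 200 in both intact replicates, 74 were past the 4-fold distance from all 6 later libraries. The ratio of 4 dpl to 1 dpl was above 2 in 2 of these and under 0.5 in 12, which left the 60 members. The other 10811 abundant transcripts kept a median of 86.6% of their intact mean at 1 dpl and 91.0% at 4 dpl. The same distance at 1 dpl alone was met by 205 abundant transcripts, and 131 of them (63.9%) did not meet it at 4 dpl. In the other direction, 334 abundant transcripts met the distance at 4 dpl, and 260 of these did not meet it at 1 dpl. The 4 dpl to 1 dpl ratio was above 2 in 96 of the 205 (46.8%), between 0.5 and 2 in 97 (47.3%) and under 0.5 in 12 (5.85%). A 4 dpl mean of at least 50% of the intact mean was reached by 37 of the 205 (18.0%). The members are 60 of the 74 that met the distance at both times.

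The most abundant member in the intact iris was mRNA85370. It had values of 11725 and 10536 in intact 1 and 2, of 1085, 784 and 1310 at 1 dpl, and of 886, 976 and 1495 at 4 dpl. Its mean was 1060 ± 264 at 1 dpl (SD, n = 3) and 1119 ± 329 at 4 dpl (SD, n = 3), against 11130 ± 841 in intact 1 and 2 (SD, n = 2). The 6 operated libraries overlapped each other and all lay far under the intact pair, with 9.52% of the intact mean at 1 dpl and 10.1% at 4 dpl. On the log2(value + 1) scale, the difference from intact was -3.42 at 1 dpl and -3.35 at 4 dpl. Intact 3 had 2288 of this transcript, under the intact pair and above all later libraries.

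The greatest distance was that of mRNA27188, the third most abundant member. It had 10330 and 7784 in intact 1 and 2, then 58.5, 51.3 and 65.3 at 1 dpl, and 87.5, 45.7 and 137 at 4 dpl. The lower intact value was 56.6 times the highest later value plus 1. The mean was 58.3 ± 7.00 at 1 dpl (SD, n = 3) and 89.9 ± 45.5 at 4 dpl (SD, n = 3), against 9057 ± 1800 in intact 1 and 2 (SD, n = 2), which left 0.644% and 0.993% of the intact mean at 1 dpl and 4 dpl. The log2 differences from intact were -7.25 and -6.76 at these times. Intact 3 had 380, which was above all 6 later libraries and 4.20% of the mean of the other intact libraries.

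The other members among the 10 most abundant lay closer to the limit of the choice. Rank 2 had 11084 and 9262 in intact 1 and 2 and 5885 in intact 3, with 1328, 1514 and 1919 at 1 dpl and 1272, 1350 and 1484 at 4 dpl. Rank 4 had 4962 and 5598 in intact 1 and 2 and 3371 in intact 3, with 673, 1143 and 1016 at 1 dpl and 565, 839 and 650 at 4 dpl. For these a reading of intact 3 between the intact pair and the later libraries was found, and 15.6% and 17.9% of the intact mean was left at 1 dpl.

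Rank 5 had the widest range of later values among the 10, with 5541 and 4225 in intact 1 and 2 and 508 in intact 3, with 322, 934 and 581 at 1 dpl and 14.4, 446 and 589 at 4 dpl. Rank 6 had 4138 and 5346 in intact 1 and 2 and 839 in intact 3, with 502, 694 and 794 at 1 dpl and 291, 678 and 692 at 4 dpl. Intact 3 lay among the later libraries in rank 5 and just above the highest of them in rank 6. The low value of rank 5 in 4 dpl replicate 1 stood well apart from the other later libraries.

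Rank 7 had 4340 and 3934 in intact 1 and 2 and 1227 in intact 3, with 784, 944 and 585 at 1 dpl and 746, 656 and 774 at 4 dpl. Rank 8 had 4016 and 3580 in intact 1 and 2 and 1594 in intact 3, with 602, 542 and 576 at 1 dpl and 704, 629 and 867 at 4 dpl. In rank 8, each 4 dpl library lay above each 1 dpl library, with a 4 dpl to 1 dpl ratio of 1.28. Rank 9 had 3620 and 3130 in intact 1 and 2 and 592 in intact 3, with 657, 678 and 775 at 1 dpl and 408, 338 and 548 at 4 dpl. Rank 9 ran the other way, with each 4 dpl library under each 1 dpl library and a ratio of 0.614. Rank 10 had 3160 and 2972 in intact 1 and 2 and 95.1 in intact 3, with 738, 502 and 508 at 1 dpl and 498, 548 and 514 at 4 dpl. It was the only one of the 10 in which intact 3 lay under all 6 later libraries.

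**Figure D1:**
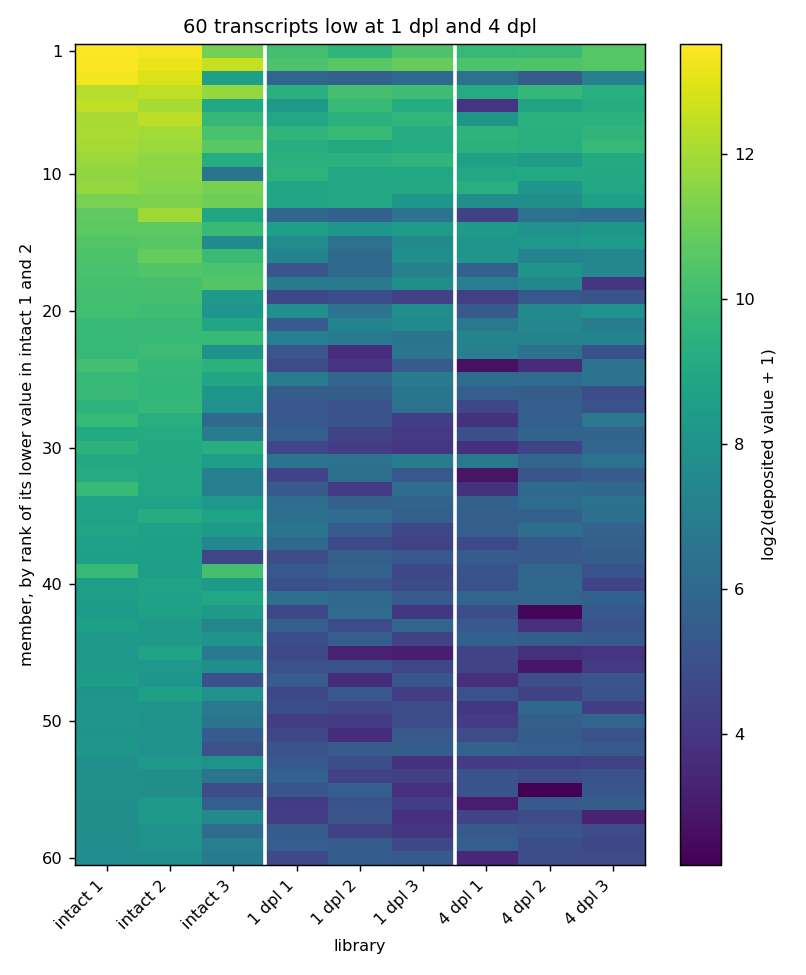
Colour gives log2(deposited value + 1) of the 60 members (rows, ordered by the lower value in intact 1 and 2) in each of the 9 libraries (columns, with white lines between intact, 1 dpl and 4 dpl). Intact 1 and 2 are brighter than the 6 later columns in all rows, which the choice fixed, and intact 3 mostly lies between, with a median member value of 296 against 722 in intact 1 and 552 in intact 2.

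In the map of the 60 members by library, the later columns were alike in level, which follows in part from the bounds of the choice. The median member value was 722, 552 and 296 in intact 1, 2 and 3, then 46.0, 47.7 and 47.1 at 1 dpl, and 42.2, 56.0 and 54.0 at 4 dpl. Summed over the 60 members, the values came to 98899, 93605 and 37602 in intact 1, 2 and 3. The sums were 10714, 11254 and 12185 at 1 dpl and 9057, 10340 and 11934 at 4 dpl. As a share of the column total, the members held 0.511% and 0.479% in intact 1 and 2 and 0.214% in intact 3. They held 0.0525% to 0.0558% at 1 dpl and 0.0420% to 0.0612% at 4 dpl. In bulk tissue, fewer cells of a type and less RNA per cell cannot be told apart, so neither can be read from these levels.

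The depth of the loss varied widely among the members. At 1 dpl, the share of the intact mean that was left ranged between 0.644% and 21.0%, with a median of 10.1%. At 4 dpl it ranged between 0.993% and 20.8%, with a median of 11.2%. As a fold, the 1 dpl mean was 4.77 to 155 times lower than the intact mean (median 9.88), and the 4 dpl mean was 4.80 to 101 times lower (median 8.95). The choice itself sets the upper end of these shares. Under 20% was left at both times in 57 members, under 10% in 22 and under 5% in 6.

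These 6 members, looked at because of their values, were ranks 3, 13, 19, 24, 30 and 45. Rank 13 had 1750 and 3874 in intact 1 and 2 and 482 in intact 3, with 60.9, 51.8 and 89.1 at 1 dpl and 19.7, 86.7 and 77.0 at 4 dpl. Rank 19 had 1115 and 1161 in intact 1 and 2 and 306 in intact 3, with 24.1, 29.2 and 20.3 at 1 dpl and 19.3, 39.0 and 34.4 at 4 dpl. In both, the 2 later groups overlapped and intact 3 lay above them. Rank 24 had 1117 and 860 in intact 1 and 2 and 707 in intact 3, with 27.5, 14.3 and 42.2 at 1 dpl and 5.56, 11.1 and 83.8 at 4 dpl. Rank 30 had 723 and 530 in intact 1 and 2 and 656 in intact 3, with 23.6, 17.5 and 14.6 at 1 dpl and 12.6, 21.2 and 58.4 at 4 dpl. Rank 45 had 303 and 422 in intact 1 and 2 and 117 in intact 3, with 24.8, 8.43 and 7.74 at 1 dpl and 21.4, 12.1 and 13.7 at 4 dpl. In ranks 24 and 30 the highest later library was 4 dpl replicate 3, and intact 3 had 71.6% and 105% of the mean of the intact pair.

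The ratio of the lower intact value to the highest later value plus 1 had a median of 5.15. It was between 4 and 5 in 29 members, over 8 in 10 and over 10 in 5. Few transcripts therefore stood far beyond the limit of the choice. The 20 most abundant members kept a median of 14.5% at 1 dpl and 12.6% at 4 dpl. Ranks 21 to 40 kept 8.42% and 9.22%, and ranks 41 to 60 kept 9.88% and 11.2%, at these times. Members with mRNA IDs kept a median of 9.17% at 1 dpl and 9.86% at 4 dpl, and those with StringTie IDs kept 11.9% and 11.4%.

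**Figure D2:**
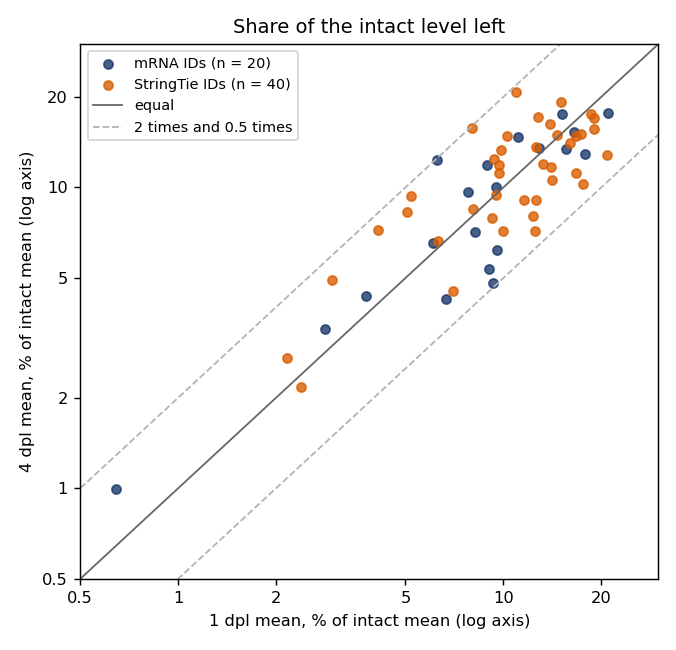
Each point is 1 of the 60 members, placed by the percent of its intact mean left at 1 dpl (x axis, log) and at 4 dpl (y axis, log), in blue for the 20 mRNA IDs and in orange for the 40 StringTie IDs. Points lie along the solid line of equal shares and between dashed lines at 0.5 and 2 times it, which the choice fixed, and mRNA27188 stands alone at 0.644% and 0.993%.

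The plot of the share left at each time shows how the members spread around equality inside the bounds of the choice. The ratio of 4 dpl to 1 dpl had a median of 1.01 and a range of 0.532 to 1.96. The 4 dpl mean was above the 1 dpl mean in 30 members and below it in 30. The highest of the 6 later libraries was at 4 dpl in 26 members and at 1 dpl in the other 34. It was most often 4 dpl replicate 3, in 14 members. On the log2(value + 1) scale, the median difference of 4 dpl from 1 dpl was -0.03 over the members and -0.24 over all 154825 tested transcripts.

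The 4 dpl and 1 dpl libraries did not overlap in 5 of the 60 members, against 13.7% of all tested transcripts. The choice bounded the ratio of 4 dpl to 1 dpl, so nothing is read from the gap between these. All 4 dpl libraries were above all 1 dpl libraries in ranks 8, 15 and 22, and below them in ranks 9 and 46. Rank 15 had 206, 83.5 and 196 at 1 dpl and 284, 300 and 341 at 4 dpl, beside 1440 and 1519 in intact 1 and 2 and 193 in intact 3. Rank 22 had 136, 117 and 91.9 at 1 dpl and 155, 154 and 155 at 4 dpl, beside 886 and 909 in intact 1 and 2 and 921 in intact 3. The choice fixed that all libraries at 4 dpl were under 25% of the intact mean, in these members as in all others. Rank 46 had 30.8, 32.5 and 22.8 at 1 dpl and 21.8, 6.33 and 16.4 at 4 dpl, beside 320 and 296 in intact 1 and 2 and 224 in intact 3. It had the lowest ratio of all members, 0.532.

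Calls were made with limma over all 154825 tested transcripts at a Benjamini-Hochberg adjusted p of under 0.05, and all 60 members were among those tested. At 1 dpl against intact, 51 of the 60 members were called lower, and 0.372% of all tested transcripts were. At 4 dpl against intact, 51 were likewise called lower, and 0.651% of all tested transcripts were. Among tested transcripts with an intact mean of at least 200, 3.66% were called lower at 1 dpl and 6.18% at 4 dpl. The choice used these contrasts, so nothing is read from the members' calls. The median log2 difference over the members was -3.33 at 1 dpl and -3.34 at 4 dpl, beside 0.03 and -0.12 over all tested transcripts. Rank 5, with 14.4 in 1 library and 934 in another, was called at neither time.

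At 4 dpl against 1 dpl, limma called 0 of the 60 members, with 2 at an unadjusted p under 0.05, while 0.648% of all tested transcripts were called in either direction. The choice bounded this ratio, so nothing is read from that count. The calls against intact rested on the intact pair. Without intact 1, the members called lower were 10 at 1 dpl and 15 at 4 dpl, and without intact 2 they were 7 and 10. They were also 31 at 1 dpl without 1 dpl replicate 2, and 32 at 4 dpl without 4 dpl replicate 2. Without the intensity trend in limma's variance, 2 members were called at 1 dpl and 6 at 4 dpl.

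The 2 intact libraries that chose the members were close to each other. They were within 1.5 times of each other in 57 members and over 2 times apart in 2. Intact 1 was the higher in 34 members, and the absolute log2 difference had a median of 0.18 and a maximum of 1.35. The widest gap was that of rank 39, with 914 in intact 1 and 359 in intact 2. Across the 60 members, the log2 values of intact 1 and 2 had a Pearson r of 0.974. The 1 dpl libraries had 0.868 to 0.894 among themselves and the 4 dpl libraries 0.753 to 0.844. Intact 3 was less like the intact pair, with 0.712 to intact 1 and 0.723 to intact 2. With that pair, the 1 dpl libraries had 0.781 to 0.857 and the 4 dpl libraries 0.694 to 0.860. The choice used the lower value of the intact pair, which favours transcripts where the pair is close. No share of close pairs was taken over other transcripts. The 60 points share their libraries and were chosen within bounds, so all these values are descriptions.

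Intact 3, which the choice did not use, read above all 6 later libraries in 50 of the 60 members (83.3%). The same held for 1440 of the other 10811 abundant transcripts (13.3%) and for 26.2% of all tested transcripts. It lay within the range of the later libraries in 7 members and below all of them in 3. The full 4-fold distance was met by intact 3 in 19 members (31.7%), and in 19 of the other 10811 abundant transcripts (0.176%). Among all tested transcripts, 3.66% had intact 3 at least 4 times the highest later value plus 1. A distance of 2 times was met in 37 members. By ID, intact 3 was above all later libraries in 19 of the 20 members with mRNA IDs and in 31 of the 40 with StringTie IDs. The choice made the later values low in the members, and nearly all the other abundant transcripts missed the 4-fold distance in intact 1 or 2. In those, intact 3 could meet it only by being above the lower of intact 1 and 2. At least part of the gap from the shares of other transcripts therefore follows from the choice, and nothing is read from its size.

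**Figure D3:**
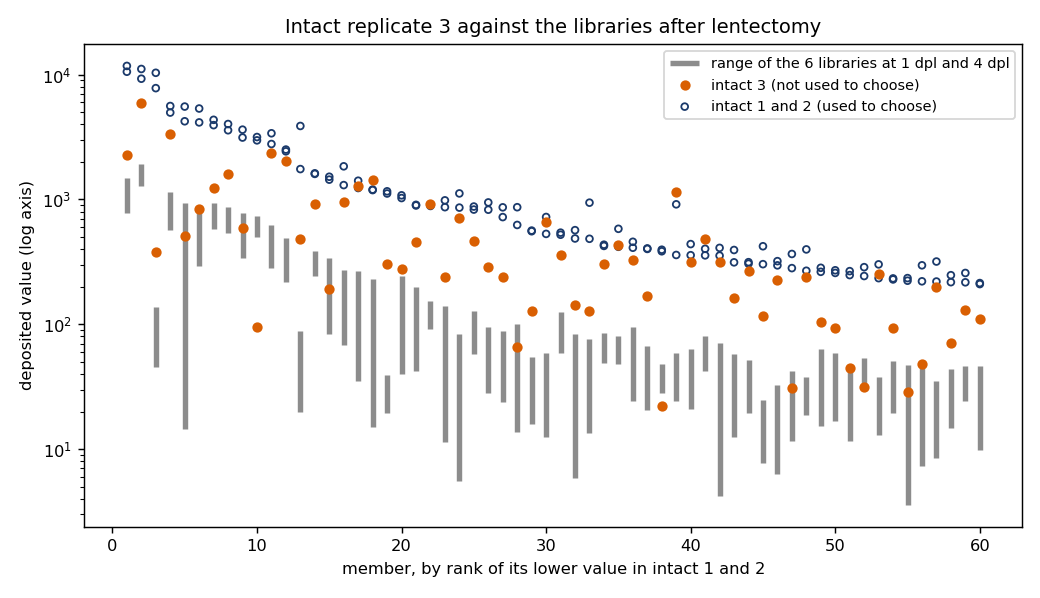
For each of the 60 members (x axis, rank), open circles give the deposited values (y axis, log) in intact 1 and 2, the filled orange point gives intact 3, and the grey bar spans the 6 libraries at 1 dpl and 4 dpl. The orange point is above the bar in 50 members, within it in 7 and under it in 3, and in 52 it is under both open circles.

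The readings of intact 3 were nevertheless mostly below those of intact 1 and 2, as the plot of intact 3 against the later range shows. Intact 3 was below both in 52 members (86.7%) and in 8400 of the other 10811 abundant transcripts (77.7%). It had a median of 42.1% of the mean of intact 1 and 2 over the members, with a range of 3.10% to 181%, and a median of 64.3% over the other abundant transcripts. The median was 57.5% in members with mRNA IDs and 40.2% in those with StringTie IDs. On the log2(value + 1) scale, the median difference of intact 3 from the mean of intact 1 and 2 was -1.25. It was -1.10 after each library was rescaled to the mean column total and -1.72 after median-of-ratios scaling, and with the second scaling intact 3 met the 4-fold distance in 11 members. The members were chosen for high values in intact 1 and 2, which can lower intact 3 beside them. How much of the difference follows from that was not tested. Where the other pairs chose, the library left out had a median of 100.6% (intact 2) and 82.2% (intact 1) of the mean of the pair.

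The ends of this range were ranks 10 and 39. Rank 10, at 95.1 in intact 3, had 3.10% of the mean of intact 1 and 2. Rank 39 had 914 and 359 in intact 1 and 2 and 1151 in intact 3, with 39.0, 52.4 and 24.5 at 1 dpl and 34.4, 58.8 and 31.8 at 4 dpl. Here all 3 intact libraries stood far above the later ones, and intact 3 was the highest. In all, intact 3 was above the higher of intact 1 and 2 in 4 members and at least the lower of them in 8. The readings of intact 3 under all later libraries were those of rank 10, rank 38 and rank 52. Rank 38 had 22.3 in intact 3, with 27.9, 48.0 and 37.4 at 1 dpl and 44.1, 40.6 and 45.7 at 4 dpl. Rank 52 had 31.4 in intact 3, with 32.7, 41.9 and 45.5 at 1 dpl and 53.4, 46.2 and 39.5 at 4 dpl. With intact 3 in place of intact 1 and 2, the median share left over the members was 22.5% at 1 dpl and 22.8% at 4 dpl.

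The number of transcripts taken depended on which intact libraries chose them. Intact 1 and 3 together took 23 transcripts, of which 17 were members, and intact 2 and 3 took 29, of which 17 were members. All 3 intact libraries took 17, which are members by the form of the rule. Of the 23, intact 2 read above all later libraries in 22 and met the 4-fold distance in 20, with a median of 100.6% of the mean of intact 1 and 3. Of the other 8020 transcripts of at least 200 in intact 1 and 3, intact 2 did so in 29.7% and 0.636%, and of all tested transcripts in 16.6% and 1.39%. Of the 29, intact 1 read above all later libraries in 24 and met the distance in 19, with a median of 82.2% of the mean of intact 2 and 3. Of the other 7963 transcripts of at least 200 in intact 2 and 3, intact 1 did so in 30.4% and 0.691%, and of all tested transcripts in 14.3% and 0.614%. Here too the choice made the later values low and left the others mostly short of the 4-fold distance. At least part of the gap between these shares follows from it, and nothing is read from its size.

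The StringTie genes of the members allowed a look at transcripts that the choice did not take, though they share reads with the members. In 6 of the 36 genes no other transcript was above 0. The other 30 genes held 191 further transcripts, and all 191 were tested. At 1 dpl against intact, 10 of the 191 (5.24%) were called lower and 6 (3.14%) higher by limma, and 0.372% and 0.971% of all tested transcripts were. At 4 dpl against intact, 15 (7.85%) were called lower and 8 (4.19%) higher, and 0.651% and 1.37% of all tested transcripts were. Their log2 difference was below 0 in 123 (64.4%) at 1 dpl and in 140 (73.3%) at 4 dpl, beside 48.9% and 62.1% of all tested transcripts. The median log2 difference was -0.49 at 1 dpl and -0.61 at 4 dpl.

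The abundant ones among them were more often low. Of the 49 other transcripts with an intact mean of at least 200, 44 (89.8%) had a log2 difference below 0 at 1 dpl and 42 (85.7%) at 4 dpl. The shares among all 12941 tested transcripts of that level were 61.6% and 57.4%. Of the 49, 10 (20.4%) were called lower at 1 dpl and 11 (22.4%) at 4 dpl, against the 3.66% and 6.18% of tested transcripts of that level given above. For example, a second abundant transcript of the gene of ranks 5 and 13 had 5847 and 3275 in intact 1 and 2. It had 497, 966 and 911 at 1 dpl and 184, 436 and 602 at 4 dpl. Its 951 in intact 3 lay within the range of the later libraries. Its limma adjusted p was 0.0496 at 1 dpl and 0.00756 at 4 dpl. The counts over the 191 rested on the intact pair, with 3 called lower at both times without intact 1, and 1 at 1 dpl and 2 at 4 dpl without intact 2. They were also 6 at 1 dpl without 1 dpl replicate 1 or without 1 dpl replicate 3, and 9 at 4 dpl without 4 dpl replicate 3. Without the intensity trend, 0 were called lower at 1 dpl and 1 at 4 dpl. In that setting, 46 were lower at 1 dpl at an unadjusted limma p under 0.05, and 58 changed in either direction. No share over all tested transcripts was taken at that p, so nothing is read from these counts.

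**Figure D4:**
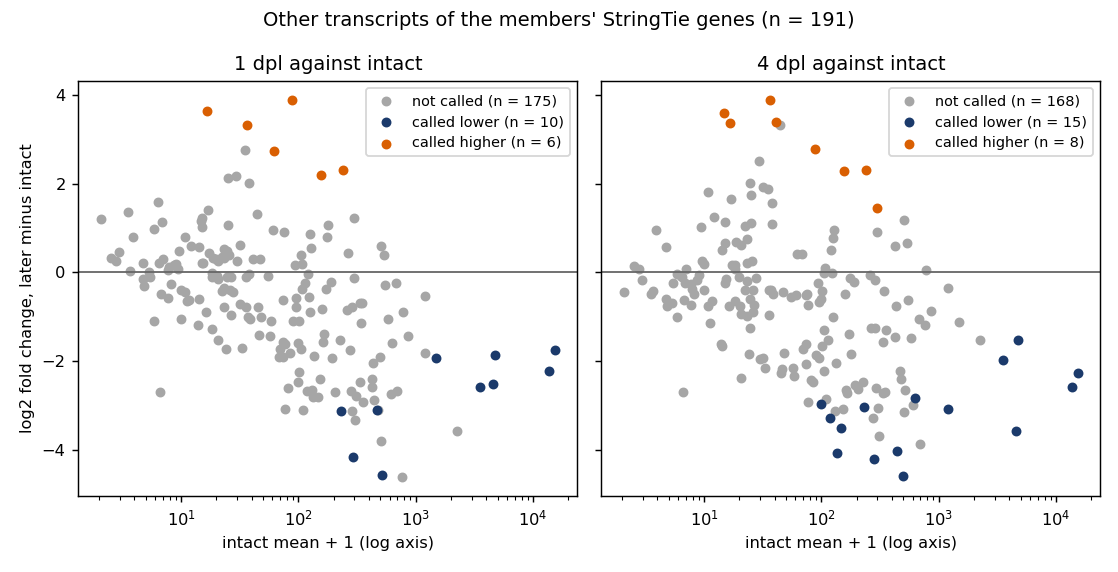
Each point is 1 of the 191 other transcripts of the members' StringTie genes, placed by its intact mean plus 1 (x axis, log) and its log2 difference from intact (y axis), at 1 dpl on the left and 4 dpl on the right. Colours mark the limma calls, lower (10 and 15) and higher (6 and 8), and most points of an intact mean of at least 200 lie below the line at 0.

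The plot of the other transcripts shows the calls in both directions in the same set of genes, and sums over each gene set these beside the members. The sum over all transcripts of a gene kept a median of 22.2% of its intact level at 1 dpl and 21.4% at 4 dpl over the 30 genes, with ranges of 12.3% to 219% and 8.29% to 124%. It was under 25% of the intact sum in 16 genes at 1 dpl and 17 at 4 dpl, and at least 50% in 6 and 7 genes. In 26 of the 30 genes, both intact sums were above all later sums, and 8 gene sums met the whole rule for members. Over all 3185 StringTie genes with more than 1 transcript above 0 and sums of at least 200 in intact 1 and 2, these shares were 31.9% and 0.377%. The sum in intact 3 was above all later sums in 23 genes, against 19.9% of the 3185, and was within their range in 2 and below them in 5. It had a median of 55.8% of the sum in intact 1 and 2.

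The sums hold the members themselves, which were chosen for being low, so the sum over the other transcripts alone was also taken for each gene. It kept a median of 51.5% of its intact level at 1 dpl and 35.9% at 4 dpl, with ranges of 14.9% to 316% and 12.0% to 179%. It was under 25% in 5 of the 30 genes at 1 dpl and 9 at 4 dpl, and at least 50% in 16 and 13. Without the members, both intact sums were above all later sums in 18 of the 30 genes. No share over all genes was taken for sums made this way, so nothing is read from this count. Some of these sums were small, such as 3.58 and 6.09 in intact 1 and 2 for the gene of rank 59. That gene had 270% of its intact level at 1 dpl, and it counts in the medians and in the 16 and 13 genes.

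The 4 genes with 2 members differed in what their other transcripts did. In the gene of ranks 5 and 13, the other 8 transcripts summed to 6616 and 4325 in intact 1 and 2 and 2665 in intact 3, with 776, 1177 and 1038 at 1 dpl and 607, 545 and 888 at 4 dpl. In the gene of ranks 26 and 29, the others summed to 993 and 985 in intact 1 and 2 and 673 in intact 3, with 380, 335 and 268 at 1 dpl and 219, 123 and 159 at 4 dpl. In both genes the later sums of the other transcripts lay under all 3 intact sums.

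In the gene of ranks 12 and 38, the others summed to 5547 and 5634 in intact 1 and 2 and 2392 in intact 3, with 1591, 1338 and 1346 at 1 dpl and 2266, 1816 and 1694 at 4 dpl. These later sums were also under all 3 intact sums, by a smaller distance. In the gene of ranks 15 and 21, the 1 other transcript had 237 and 140 in intact 1 and 2 and 319 in intact 3, with 179, 201 and 106 at 1 dpl and 181, 162 and 130 at 4 dpl. Here the later libraries overlapped the intact ones.

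**Figure D5:**
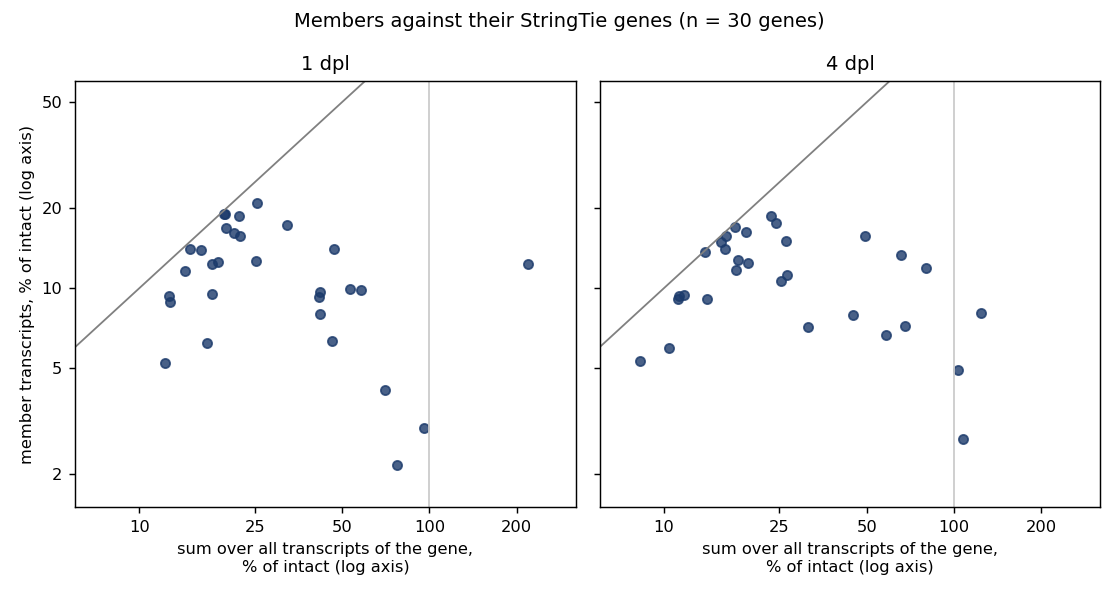
Each point is 1 of the 30 StringTie genes with other transcripts, placed by the percent of its intact sum left over all transcripts (x axis, log) and over its members alone (y axis, log), at 1 dpl on the left and 4 dpl on the right. The diagonal marks equal shares and the vertical line marks 100%, and the gene sums spread to the right of the members, with 6 genes at 1 dpl and 7 at 4 dpl at 50% or more.

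The plot of gene sums against members has all genes to the right of the diagonal, since the members' share of their gene's sum was lower than in intact 1 and 2 in 30 of 30 genes at both times. This share had a median of 22.8% at 1 dpl and 34.9% at 4 dpl, against 47.6% in intact 1 and 2. It follows in part from the choice of low transcripts. In intact 3, which the choice did not use, the median was 30.0%, and the share was lower than in intact 1 and 2 in 24 of the 30 genes. The members were chosen for high values in intact 1 and 2, which can make their share lower in intact 3. How much of the difference follows from that was not tested. Members held over 50% of the gene's sum in 15 genes in intact 1 and 2, and in 4 of these they no longer did at 1 dpl.

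In 3 genes, looked at because of their values, the mean of the gene's sum at 4 dpl was above the mean of intact 1 and 2, with overlapping libraries, while the member was low. The gene of rank 19 had 26 transcripts, and its sum was 7671 and 6722 in intact 1 and 2 and 3313 in intact 3, with 5566, 5390 and 5700 at 1 dpl and 7033, 8098 and 8120 at 4 dpl. The member's share of that sum was 0.442% at 1 dpl and 0.399% at 4 dpl, against 15.8% in intact 1 and 2. Another transcript of this gene had 262 and 214 in intact 1 and 2 and 546 in intact 3, with 1038, 1245 and 1263 at 1 dpl and 986, 1488 and 1133 at 4 dpl. Its log2 difference from intact was 2.31 at 1 dpl and 2.32 at 4 dpl, and it was called higher at both times.

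The gene of rank 30, with 13 transcripts, had sums of 2590 and 2622 in intact 1 and 2 and 2038 in intact 3, with 2467, 2478 and 2516 at 1 dpl and 2960, 2529 and 2600 at 4 dpl. The member's share was 0.747% at 1 dpl and 1.14% at 4 dpl, against 24.0% in intact 1 and 2. A second transcript of it had 179 and 131 in intact 1 and 2 and 80.3 in intact 3, with 712, 695 and 725 at 1 dpl and 1003, 697 and 599 at 4 dpl. This transcript was called higher at both times, with log2 differences of 2.21 and 2.28.

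The gene of rank 43, with 7 transcripts, had sums of 1219 and 998 in intact 1 and 2 and 937 in intact 3, with 2455, 2126 and 2709 at 1 dpl and 1278, 1743 and 1110 at 4 dpl. The member itself had 393 and 313 in intact 1 and 2 and 162 in intact 3, with 46.2, 27.0 and 57.5 at 1 dpl and 39.7, 12.5 and 33.0 at 4 dpl. A further transcript had 124 and 50.5 in intact 1 and 2 and 340 in intact 3, with 1298, 998 and 1304 at 1 dpl and 344, 1120 and 438 at 4 dpl. It was called higher at both times, with log2 differences of 3.90 and 2.79. In this gene and in that of rank 19, the transcript shown as high later was also higher in intact 3 than in intact 1 and 2. Among further transcripts of these genes that were called higher, some were higher in intact 3 and some were lower. In the gene of rank 30 the transcript shown was lower, with 80.3 in intact 3 against 179 and 131. Transcripts that were not high later could be higher in intact 3 too. One of the gene of rank 19 had 11.5 and 6.37 in intact 1 and 2, 40.1 in intact 3 and 5.13 to 12.8 later. No link between intact 3 and the later rise is therefore read from these transcripts.

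Rank 10 also had a transcript of its gene that was higher in intact 3 than in intact 1 and 2. Its gene held 1 other transcript, which had 221 and 28.1 in intact 1 and 2 and 1501 in intact 3, with 57.1, 50.6 and 25.8 at 1 dpl and 54.0, 25.6 and 42.8 at 4 dpl. The gene's sum was 3381 and 3000.0 in intact 1 and 2 and 1596 in intact 3, with 795, 552 and 533 at 1 dpl and 552, 573 and 557 at 4 dpl. While the member alone was below all later libraries in intact 3, the sum of its gene was above all of them.

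The limits of the choice cut through a continuous range of values. The lowest member had 210 in its lower intact library, and the nearest transcript outside had 194. The lowest distance inside was 4.02, that of rank 10, and the highest outside was 3.97. The ratio of 4 dpl to 1 dpl was at most 1.96 inside, with 2.69 the next outside, and at least 0.532 inside, with 0.459 the next outside. With a distance of 2 times the list would hold 386 transcripts, and with 8 times it would hold 10.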

How the data were processed

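Dorsal iris polyA RNA of P. waltl was sequenced in 9 libraries from directional kits, 3 each for intact, 1 dpl and 4 dpl. The authors used Trim Galore for trimming, STAR for alignment, StringTie for assembly and Salmon for quantification, with tool versions and genome build not given in the sources used here. The deposited values, named average TPM by the authors, are handled as a signal, since their columns do not sum to 1000000. The planned test assumed TPM and was kept as written. None of the values above 0 was whole, so the read counts behind them are unknown and no interval for counting error is given. For sequencing depth, the paper states a minimum number of read pairs per sample. All 9 columns matched a sample label.

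Software for input was pandas 2.3.3, with data.table at version 1.17.8. Transcripts with a mean of at least 0.5 over 8 libraries (intact 3 left out) were fitted as log2(value + 1) with limma 3.58.1 in R 4.3.3, with all 3 groups in one model and an intensity trend in eBayes. Benjamini-Hochberg adjustment ran over 154825 transcripts at a threshold of 0.05. The fit was tested on simulated data first. Fold changes on this scale understate the change of low transcripts. The SD is given over libraries. The p-values set a difference between groups against the spread between pooled-tissue libraries. That spread was estimated in part from the trend over all tested transcripts. Plots were drawn with matplotlib 3.10.9.

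The members and the lists were chosen with earlier results of these data known. The IDs printed are those of the member with the highest lower intact value and of the member with the greatest distance from the later libraries. Others are given by rank (the first 10, those nearest the limits of the choice, and those with the highest and lowest share in intact 3). Members outside these, and the genes whose values are shown, were picked after their values were seen. Sums without the members were added last. Alternatives covered the limits of the choice, the intact libraries that chose, the pseudocount, the filter, the variance trend, scaling between libraries, the libraries in the fit, a replicate block and each library left out.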

Additional observations from a re-analysis of the deposited data

How the results depend on the processing

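Of 203 alternative values computed, 158 kept the direction and the side of the threshold, or stayed within 1.5 times of a count or within 1 SD of a value. Many of the 158 were log2 differences of the 2 printed IDs, at 17 or 18 for each ID and time. A further 18 were the 0 members called at 4 dpl against 1 dpl. The choice set or bounded these, so the total is not read as a measure of stability. The number of members, 60 as chosen, was 37 with a minimum intact value of 400, 386 with a distance of 2 times, 10 with 8 times, 23, 29 and 17 when intact 1 and 3, intact 2 and 3 or all 3 intact libraries chose, and 68 to 82 with each later library left out. Intact 3 met the 4-fold distance in 11 members after median-of-ratios scaling, and the median log2 difference of intact 3 from intact 1 and 2 was -1.72 with that scaling and -1.10 after rescaling to the mean column total. The median share left at 1 dpl was 9.56% after that rescaling, 22.5% with intact 3 alone as intact, 9.81% over the members with intact 3 above all later libraries (an alternative chosen after seeing the data) and 9.99% to 11.4% with each library left out. At 4 dpl it was 22.8% with intact 3 alone and 10.3% to 11.2% with each library left out. Members called lower by limma, 51 at both times, were 2 and 6 without the intensity trend (1 dpl and 4 dpl), 8 at 1 dpl with only the groups compared in the fit, and 7 to 49 and 10 to 52 with each library left out. Other transcripts called lower, 10 and 15 of 191, were 0 and 1 without the trend. At 1 dpl without it, 46 were lower and 58 changed in either direction at an unadjusted limma p under 0.05. Those called lower were 19 and 26 of 141 tested with a minimum mean of 20. With columns rescaled to 1000000 they were 27 and 34 of 156 tested. With only the groups compared there was 1 at 1 dpl. With each later library left out there were 6 to 9 at 1 dpl and 9 to 19 at 4 dpl. A lone intact library was assumed to vary like the other groups. Same-numbered libraries had correlations of -0.0806 to 0.0048 in their deviations from the group means. Within a group these deviations are tied to each other, so such values cannot show whether the numbers pair the samples. With the replicate block, members called lower were 28 at 1 dpl and 34 at 4 dpl, other transcripts 6 and 9. In alternatives that kept both intact 1 and 2, the log2 differences of mRNA85370 (-3.42 and -3.35) were past the threshold except without the trend. Those of mRNA27188 were past it in each of these. Over all alternatives they were between -7.47 and -5.73 at 1 dpl and between -7.12 and -5.24 at 4 dpl. Both transcripts were picked by their values in these libraries, so nothing is read from their calls. With columns rescaled to 1000000, the same filter and pseudocount met smaller values, so fewer transcripts were tested and the pseudocount weighed more. The median log2 difference of 4 dpl from 1 dpl was then -0.01 over the transcripts tested and 0.01 over the members. The move from -0.24 over all 154825 is therefore not read as an effect of scaling alone. Counts of members called between these times are not read as stability, because the choice bounds their ratio. Unknown read counts per transcript limit the reading of values near 0.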
